A study of Mus musculus with 12 samples.

Results

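The 10 genes described here encode ionotropic and metabotropic glutamate receptors and were followed through the dorsal telencephalon (pallium, the forerunner of the cerebral cortex) of mouse embryos at E13.5. They are 10 of the 54735 gene symbols in each expression table and were taken by name: the AMPA receptor genes Gria1, Gria2, Gria3 and Gria4, the NMDA receptor genes Grin1, Grin2b and Grin3a, the kainate receptor genes Grik2 and Grik5, and the metabotropic receptor gene Grm5. Total RNA of the pallium was sequenced in 12 embryos of strain C57/Bl6, 4 of each genotype. Control embryos were Rnu11 wt/flx and Trp53 wt/wt, cKO embryos were Rnu11 flx/flx and Trp53 wt/wt, and dKO embryos were flx/flx at both genes. All 12 carried Emx1-Cre, including the controls, which are therefore heterozygous for the floxed Rnu11 allele. Emx1-Cre recombines in pallial progenitors and their progeny, whereas vessels, microglia and interneurons from the ventral forebrain arise outside that lineage. Rnu11 encodes the U11 small nuclear RNA of the minor spliceosome, and Trp53 encodes p53.

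Ionotropic glutamate receptors are tetrameric cation channels opened by glutamate. AMPA receptors carry fast excitatory current, and their GluA2 subunit, made by Gria2, makes the channel nearly impermeable to calcium once its RNA has been edited. NMDA receptors need the GluN1 subunit of Grin1 together with GluN2 or GluN3 subunits, and GluN2B is the main GluN2 subunit of the embryonic cortex. Kainate receptors combine GluK2 (Grik2) with subunits such as GluK5 (Grik5), and the metabotropic receptor mGluR5 (Grm5) signals through Gq and phospholipase C. In the embryonic cortex glutamate receptors appear before synapses are mature.

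The values are taken as TPM, transcript abundance per gene length scaled to a sum of 1000000 in each library. The unit was inferred from that sum, which alone does not show scaling by gene length. Comparisons of level between genes, and shares and ratios of different genes, rest on this reading. The tables do not hold the number of reads behind a value, so the depth is unknown and no counting interval is given. Symbols with a value above 0 numbered 25418 to 26618 in control, 27718 to 29223 in cKO and 24574 to 29300 in dKO. What this means for genes below 1 TPM was not tested. As a check of the labels, Rnu11 ranged from 521 to 724 TPM in control, 115 to 159 in cKO and 142 to 199 in dKO, and Trp53 from 0.920 to 1.49 TPM in dKO against 2.63 to 6.37 in the other embryos. Nuclear protein-coding genes took only 14.4% to 19.99% of a library's TPM. Over the 11764 genes that averaged 1 TPM or more, the median log2(TPM + 1) difference was 0.25 between cKO and control, -0.01 between dKO and control, and -0.26 between dKO and cKO. Setting every library to the same median (centring) brought these to -0.00, 0.01 and 0.01. Giving every library the same protein-coding total (rescaling) brought them to 0.12, 0.04 and -0.08. Differences are given as deposited, and calls also after centring and rescaling. The p-values measure the spread between these embryos only.

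In control pallium Gria2 (27.5 TPM ± 4.71) and Grik2 (26.5 ± 4.13) were the most abundant and overlapped between embryos (mean ± SD, n = 4 in every group here and below). Grik5 at 2.70 ± 0.545 TPM and Gria4 at 2.14 ± 0.220 came next and overlapped each other, below every Grik2 value. Grin2b (0.991 TPM ± 0.0823), Gria3 (0.774 ± 0.219) and Gria1 (0.451 ± 0.0715) followed, with overlap between neighbours in that order. Grin1 (0.233 TPM ± 0.0582) overlapped with Grm5 (0.171 ± 0.0751), and Grin3a was lowest at 0.0610 ± 0.0145. In cKO, Gria2 lay above Grik2 in every embryo, and Gria4 overlapped with Grik5 below them. In dKO, Grik2 and Gria2 overlapped at the top, with Grik5, Gria4 and Grin2b overlapping below them.

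All 10 genes had a higher mean in cKO than in control and a lower mean in dKO than in cKO. For 8 genes every cKO embryo lay above every control embryo, the exceptions being Gria2 and Grik2. Among all genes averaging 0.01 TPM or more, 22.6% were separate upward in this way. In dKO compared with cKO, 6 of the 10 genes were lower in every embryo, where 22.6% of all genes were. Relative to control, dKO embryos were separate upward for Grin1 only (4.74% of all genes) and downward for Gria2 only (6.06%). These counts and shares are of values as deposited, which include the shift of cKO over all genes, and were not repeated after rescaling. The shares cover genes down to 0.01 TPM, below all 10 receptor genes, and shares among genes of like level are not given. Both comparisons with control share the control embryos, and both comparisons with cKO share the cKO embryos.

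**Figure D1:**
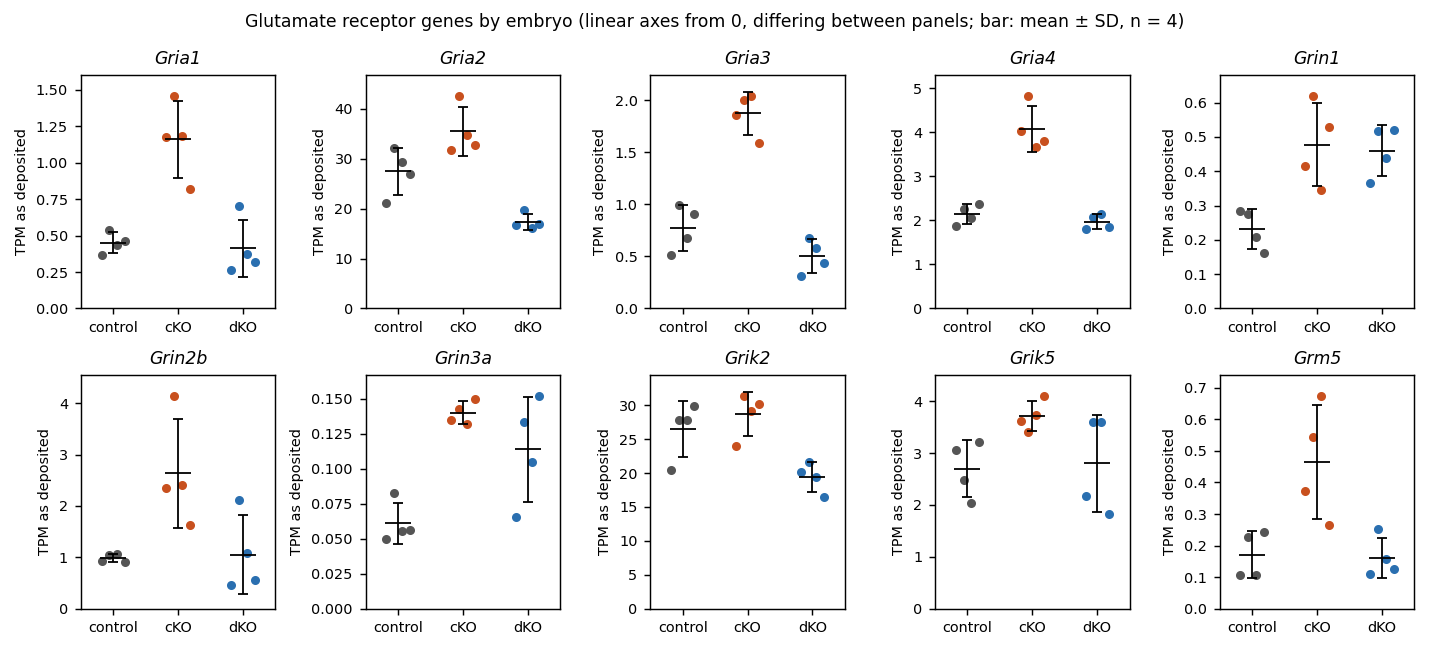
TPM of the 10 glutamate receptor genes in each embryo (points) by genotype, with mean ± SD (n = 4) on linear axes that start at 0 and differ between genes. All 10 genes have their highest mean in cKO. Gria2 is the only gene with every dKO embryo (16.2 to 19.8 TPM) below every control, and Grin1 is higher in both mutants than in control.

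Of the 10 genes, 6 averaged 1 TPM or more over the 12 libraries and entered the test across all genes (limma on log2(TPM + 1), Benjamini-Hochberg adjusted over 11764 genes, called at an adjusted p under 0.05). Gria3 was below 1 TPM on average in control and dKO and passed through its cKO values. Grin2b was close to the limit in control (0.991 TPM) and dKO (1.05). The number of tested genes called is therefore no support for a change of the family. In cKO, 4 of the 6 (Gria2, Gria3, Gria4 and Grin2b) were called higher, where 34.3% of all tested genes were. After rescaling 2 (Gria3 and Gria4) were called, against 11.3%, and after centring 1 (Gria4), against 3.72%. In dKO compared with control 1 gene, Gria2, was called, as lower, against 3.4% of all genes as deposited, 4.69% after centring and 3.74% after rescaling. Between cKO and dKO, 5 were called lower in dKO as deposited (38.8% of all genes). Centring left 3 of them, Gria2, Gria3 and Gria4, against 3.83%, and rescaling left the same 3, against 8.28%.

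Without a filter, all 10 entered a fit of 39624 genes. In it 7 were called higher in cKO (11% of all genes), 1 lower in dKO than in control (0.669%) and 7 lower in dKO than in cKO (14.5%). With rescaling these counts were 2, 0 and 4, against 3.41%, 0.765% and 3.11% of all genes. With each library divided by its median ratio to the average library they were 1, 0 and 3, against 1.5%, 0.964% and 1.67%. These shares cover all 39624 genes, of which only 11764 averaged 1 TPM or more, as 6 of the 10 did. Among those 11764, fitted alone as deposited, 34.3% were called higher in cKO and 38.8% lower in dKO than in cKO. Shares among genes of like level are not given.

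**Figure D2:**
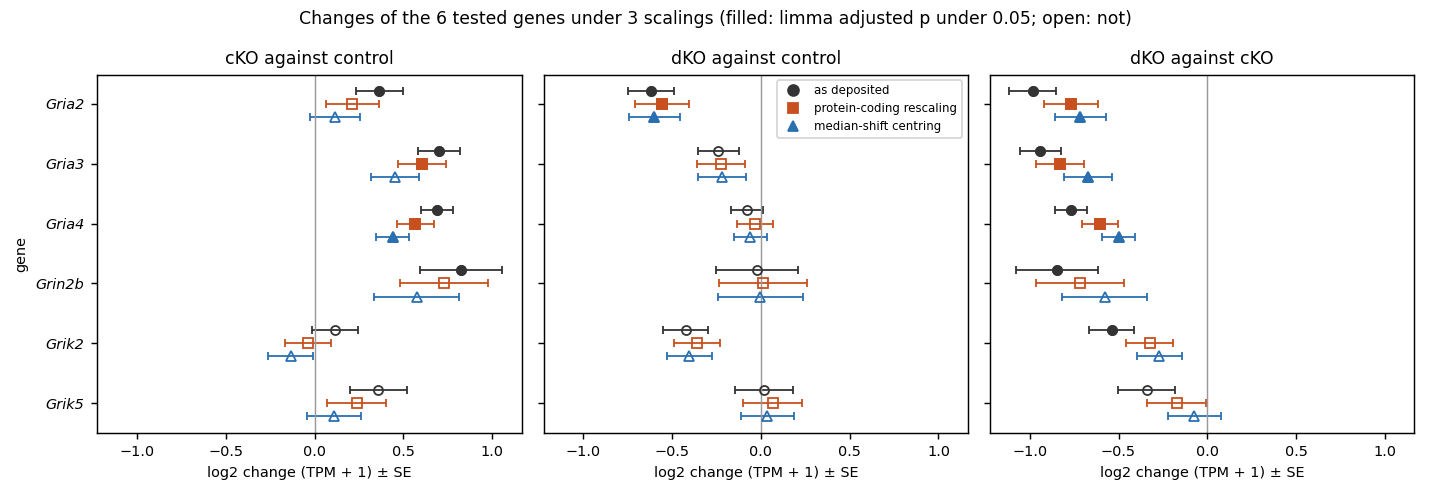
Log2(TPM + 1) change ± SE from limma for the 6 tested genes in the 3 comparisons, as deposited, with equal protein-coding totals and with equal medians (filled symbols, adjusted p under 0.05). Gria4 in cKO, Gria2 in dKO compared with control, and Gria2, Gria3 and Gria4 in dKO compared with cKO are filled under all 3 scalings.

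Promoter windows of 3 genes are shown because the genes stand for the patterns described here. Gria4 was called higher in cKO under every one of the 3 scalings. Gria2 was called lower in dKO than in control, and Grik2 was not called against control. RefSeq (GRCm38.p6) gave windows for 5 of the 10 genes (Gria2, Gria4, Grin1, Grik2 and Grik5). Each sequence is the 250 bases before the annotated start, 5′ to 3′ on the minus strand, which is the coding strand of all 3 genes: chr3:80802836-80803085 for Gria2, chr9:4796235-4796484 for Gria4 and chr10:49788755-49789004 for Grik2. Capitals mark matches, on either strand, to the GC box (GGGCGG), the CCAAT box (CCAAT) and the TATA box (TATAAA).
Gria2: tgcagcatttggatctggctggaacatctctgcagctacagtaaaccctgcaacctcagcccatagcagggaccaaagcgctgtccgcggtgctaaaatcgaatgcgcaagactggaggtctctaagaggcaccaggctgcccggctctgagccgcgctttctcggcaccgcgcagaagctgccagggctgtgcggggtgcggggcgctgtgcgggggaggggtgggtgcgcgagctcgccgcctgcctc
Gria4: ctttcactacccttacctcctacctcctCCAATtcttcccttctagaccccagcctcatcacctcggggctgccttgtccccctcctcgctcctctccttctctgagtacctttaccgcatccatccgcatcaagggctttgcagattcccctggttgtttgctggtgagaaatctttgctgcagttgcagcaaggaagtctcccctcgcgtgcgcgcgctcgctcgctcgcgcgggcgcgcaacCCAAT
Grik2: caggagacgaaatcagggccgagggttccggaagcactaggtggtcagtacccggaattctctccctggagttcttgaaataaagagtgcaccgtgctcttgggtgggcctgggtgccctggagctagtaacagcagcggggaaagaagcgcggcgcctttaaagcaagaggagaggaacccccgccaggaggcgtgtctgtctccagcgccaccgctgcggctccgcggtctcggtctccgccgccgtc
The Gria4 window held 2 CCAAT boxes, a motif found in 33.8% of all 32851 windows of this length, and the Gria2 and Grik2 windows held none of the 3 motifs. Of the other windows, that of Grik5 held 2 GC boxes, found in 32.7% of all windows, and that of Grin1 held no match. The TATA box occurred in 12.4% of all windows and in none of the 5. The windows of Gria2, Gria4 and Grik2 were 64.8%, 58.8% and 62.8% G and C, above the median of 52.4%, with 19, 16 and 20 CpG pairs against a median of 6. These matches describe the letters of the windows and were not tested as binding sites.

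Gria2 lies on chromosome 3 (80681450 to 80802835, GENCODE M21 on GRCm38). It stood at 21.2, 32.3, 29.4 and 27.01 TPM in controls 1 to 4, at 31.8, 42.6, 34.8 and 32.7 in the cKO embryos and at 16.7, 19.8, 16.2 and 16.9 in the dKO embryos. The dKO embryos all lay below the controls, and the cKO embryos overlapped with control 2. In dKO the log2 change from control was -0.62 ± 0.132 (SE; limma adjusted p = 0.0176), -0.60 after centring (limma adjusted p = 0.0261) and -0.56 after rescaling (limma adjusted p = 0.0412). Leaving out any 1 of controls 2, 3 or 4 or dKO embryo 3 lost this call, with limma adjusted p from 0.0501 to 0.0598. From cKO to dKO the change was -0.98 (limma adjusted p = 0.000445), -0.71 after centring (limma adjusted p = 0.0153) and -0.77 after rescaling (limma adjusted p = 0.0102). The rise in cKO, 0.36 ± 0.132 (limma adjusted p = 0.0479), was not called after centring (0.12, limma adjusted p = 0.706) or rescaling (0.21, limma adjusted p = 0.367). Its call was lost in 9 of the 12 fits that each left out 1 embryo, with limma adjusted p between 0.0364 and 0.141 over the 12, and in a fit of cKO and control alone (limma adjusted p = 0.0735).

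Gria4, on chromosome 9 (4417896 to 4796234), encodes GluA4, an AMPA subunit prominent early in development. It stood at 1.88, 2.26, 2.05 and 2.38 TPM in controls 1 to 4, at 4.02, 4.83, 3.66 and 3.81 in the cKO embryos and at 1.81, 2.08, 2.15 and 1.85 in the dKO embryos. Every cKO value was above every value of the other groups, and dKO overlapped control. The cKO mean was 1.90 times that of control, and the log2 change was 0.69 ± 0.0885 (SE; limma adjusted p = 0.000368), 0.44 after centring (limma adjusted p = 0.0159) and 0.57 after rescaling (limma adjusted p = 0.00471). From cKO to dKO it was -0.77 (limma adjusted p = 0.000192), -0.50 after centring (limma adjusted p = 0.0117) and -0.60 after rescaling (limma adjusted p = 0.00549). The dKO embryos differed from control by -0.08 (limma adjusted p = 0.689).

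Gria3, on chromosome X (41400854 to 41678601), encodes GluA3, a frequent partner of GluA2. It stood at 0.512, 0.993, 0.681 and 0.908 TPM in controls 1 to 4, at 1.86, 2.00, 2.04 and 1.59 in the cKO embryos and at 0.309, 0.679, 0.581 and 0.433 in the dKO embryos. The cKO embryos were again separate from the other groups, which overlapped. The log2 change in cKO was 0.70 ± 0.117 (SE; limma adjusted p = 0.00176), called after rescaling (0.61, limma adjusted p = 0.0142) but not after centring (0.45, limma adjusted p = 0.0728). From cKO to dKO it was -0.94 (limma adjusted p = 0.000273), -0.67 after centring (limma adjusted p = 0.0156) and -0.83 after rescaling (limma adjusted p = 0.00441). Gria3 entered this fit through its cKO values. Without a filter, as deposited, limma gave adjusted p = 0.00342 in cKO and 0.000675 from cKO to dKO. Xist, the RNA that coats an inactive X chromosome, was between 19.2 and 38.2 TPM in 6 libraries and at most 0.225 TPM in the other 6. Among the latter, Gria3 was at 0.512 and 0.993 TPM in controls 1 and 2, at 2.04 in cKO 3 and at 0.309, 0.679 and 0.433 in dKO 1, 2 and 4.

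Gria1, on chromosome 11 (57011387 to 57330244), encodes GluA1, an AMPA subunit known for its part in synaptic plasticity, and averaged 0.675 TPM over all libraries. It stood at 0.368, 0.541, 0.436 and 0.460 TPM in controls 1 to 4, at 1.18, 1.46, 1.18 and 0.819 in the cKO embryos and at 0.267, 0.700, 0.373 and 0.317 in the dKO embryos. All cKO values were above all others, and dKO overlapped control. Without a filter the change in cKO was 0.57 ± 0.111 (SE; limma adjusted p = 0.00972) and that from cKO to dKO -0.61 (limma adjusted p = 0.00565). With rescaling in that fit they were 0.50 (limma adjusted p = 0.0513) and -0.52 (limma adjusted p = 0.0438), and with median-ratio scaling 0.43 (limma adjusted p = 0.0977) and -0.48 (limma adjusted p = 0.0636).

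The makeup of the AMPA transcripts within an embryo is a ratio and does not move with library scaling. Gria2 made up 88.5, 89.5, 90.3 and 87.8% of the summed Gria1 to Gria4 TPM in controls 1 to 4. It made up 81.8, 83.7, 83.5 and 84.02% in the cKO embryos and 87.5, 85.1, 83.9 and 86.7% in the dKO embryos. Both mutant groups lay below all controls, by a narrow gap for dKO embryo 1. The share of Gria4 was 7.04% ± 0.873 among controls, 9.60% ± 0.658 for cKO and 9.78% ± 0.953 for dKO, with all mutant embryos above all controls. A share depends on every gene in the sum. In dKO the mean TPM of Gria4 was 92.1% of control and that of Gria2 63.3%. Gria3 held 2.48% ± 0.436 in control, 4.42% ± 0.486 in cKO and 2.44% ± 0.652 in dKO, and the cKO embryos were separate from both other groups. Gria1 held 1.47% ± 0.0882, 2.71% ± 0.412 and 1.99% ± 0.716 in the same order, with cKO separate from control and dKO overlapping both. These shares are a description chosen after the values were seen and carry no test.

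**Figure D3:**
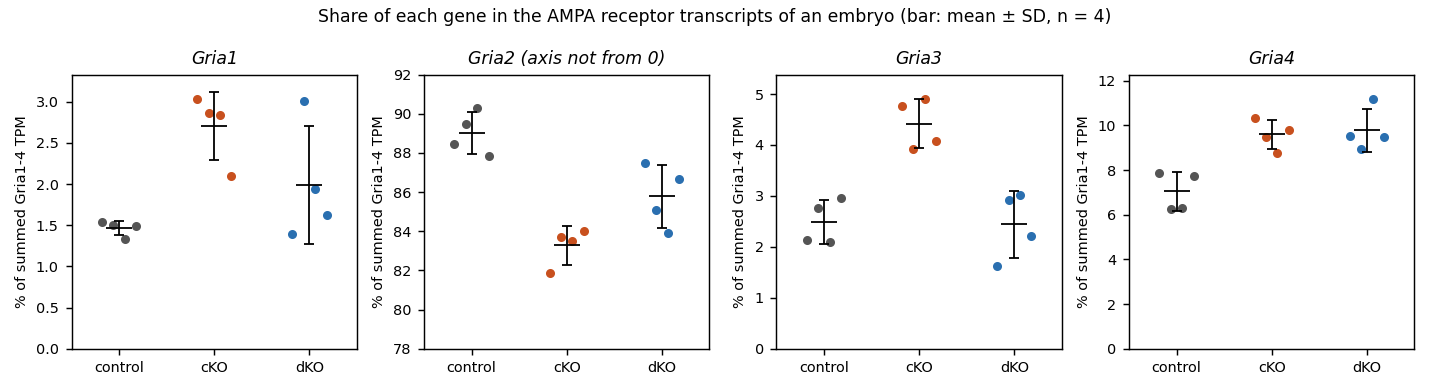
Percent of the summed Gria1 to Gria4 TPM contributed by each gene in each embryo (points), with mean ± SD (n = 4); axes start at 0 except for Gria2. The Gria2 share is at least 87.8% in every control and between 81.8% and 87.5% in the mutants, and the Gria4 share is higher in all mutants than in all controls. Gria4 TPM itself overlaps between dKO and control.

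Among the NMDA receptor genes, Grin2b on chromosome 6 (135713233 to 136173511) stood at 0.927, 1.05, 1.07 and 0.915 TPM in controls 1 to 4. It stood at 2.35, 4.14, 2.41 and 1.63 in the cKO embryos and at 0.458, 2.12, 1.09 and 0.555 in the dKO embryos. The controls lay close together and below all cKO embryos, whereas dKO embryo 2 lay within the cKO range. The log2 change in cKO was 0.82 ± 0.233 (SE; limma adjusted p = 0.0193). It was not called after centring (0.58, limma adjusted p = 0.184), after rescaling (0.73, limma adjusted p = 0.074) or without cKO embryo 2 (0.64, limma adjusted p = 0.0587). In dKO it differed from control by -0.02 ± 0.233 (limma adjusted p = 0.975) and from cKO by -0.85 (limma adjusted p = 0.0148), the latter not called after centring (-0.58, limma adjusted p = 0.17) or rescaling (-0.72, limma adjusted p = 0.0874).

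Grin1, on chromosome 2 (25291181 to 25319187), encodes the subunit that every NMDA receptor needs, and was the only gene of the 10 that was separate from control upward in both mutants. It stood at 0.285, 0.276, 0.207 and 0.163 TPM in controls 1 to 4, at 0.416, 0.620, 0.346 and 0.529 in the cKO embryos and at 0.366, 0.518, 0.437 and 0.519 in the dKO embryos. The mutant groups overlapped each other. Without a filter the change in cKO was 0.26 ± 0.0751 (SE; limma adjusted p = 0.0478) and that in dKO 0.24 (limma adjusted p = 0.175), and with rescaling 0.21 (limma adjusted p = 0.145) and 0.27 (limma adjusted p = 0.0927). Grin2b TPM was 4.47 ± 1.12 times that of Grin1 in control, 5.59 ± 1.76 times in cKO and 2.22 ± 1.39 times in dKO, where control and cKO overlapped and dKO overlapped them through dKO embryo 2.

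Grin3a, on chromosome 4 (49661611 to 49845744), encodes a GluN3 subunit and was the lowest of the 10. It stood at 0.0497, 0.0823, 0.0557 and 0.0562 TPM in controls 1 to 4, at 0.135, 0.143, 0.132 and 0.150 in the cKO embryos and at 0.0655, 0.133, 0.105 and 0.152 in the dKO embryos. The cKO values were separate from control and dKO overlapped both. The log2 change in cKO was 0.10 without a filter (limma adjusted p = 0.0258) and 0.09 with rescaling (limma adjusted p = 0.118).

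The kainate receptor gene Grik2, on chromosome 10 (49094833 to 49788766), stood at 20.5, 27.8, 27.8 and 29.9 TPM in controls 1 to 4, at 23.96, 31.3, 29.1 and 30.2 in the cKO embryos and at 20.2, 21.6, 19.3 and 16.5 in the dKO embryos. Control and cKO overlapped, dKO was below cKO in every embryo, and control 1 lay within the dKO range. The log2 change in cKO was 0.11 ± 0.129 (SE; limma adjusted p = 0.479) as deposited, with the opposite sign after centring (-0.13) and rescaling (-0.04). In dKO compared with control it was -0.42 (limma adjusted p = 0.0799), -0.40 after centring (limma adjusted p = 0.0718) and -0.36 after rescaling (limma adjusted p = 0.11). Without control 1 it was -0.54 (limma adjusted p = 0.0254). From cKO to dKO it was -0.54 (limma adjusted p = 0.00777), not called after centring (-0.27, limma adjusted p = 0.224) or rescaling (-0.32, limma adjusted p = 0.137). The ratio of Gria2 to Grik2 TPM was 1.04 ± 0.105 among controls, 1.24 ± 0.128 for cKO and 0.901 ± 0.0920 for dKO, with every cKO embryo above every dKO embryo and control overlapping both.

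Grik5, on chromosome 7 (25009849 to 25072346), stood at 3.07, 2.48, 2.04 and 3.22 TPM in controls 1 to 4, at 3.62, 3.41, 3.73 and 4.10 in the cKO embryos and at 2.17, 3.61, 3.60 and 1.83 in the dKO embryos. The cKO embryos were just above control, and the dKO embryos overlapped both groups. In the fit of all 3 groups limma called no contrast as deposited, with adjusted p = 0.0967 between cKO and control, 0.971 between dKO and control and 0.105 between dKO and cKO. The log2 change in cKO was 0.36 ± 0.161 (SE) as deposited, 0.11 after centring (limma adjusted p = 0.739) and 0.24 after rescaling (limma adjusted p = 0.363). A fit of cKO and control alone called it (0.36 ± 0.113, limma adjusted p = 0.039).

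Grm5, also on chromosome 7 (87584168 to 88134907), stood at 0.107, 0.228, 0.106 and 0.245 TPM in controls 1 to 4, at 0.374, 0.545, 0.674 and 0.264 in the cKO embryos and at 0.111, 0.252, 0.158 and 0.126 in the dKO embryos. Its cKO values were separate from both other groups, which overlapped. Without a filter the change was 0.32 in cKO (limma adjusted p = 0.0401) and -0.33 from cKO to dKO (limma adjusted p = 0.0289), and neither was called with rescaling (limma adjusted p = 0.138 and 0.131).

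Markers of neurons moved with these genes. The summed TPM of 12 neuron markers (such as Tubb3, Dcx and Snap25) ranged from 237 to 259.7 in control, 311 to 381 in cKO and 162 to 249.7 in dKO. As deposited, 7 of the 12 were called higher in cKO than in control, against 34.3% of all tested genes, and 10 lower in dKO than in cKO, against 38.8%. These counts were 0 and 3 (Neurod2, Snap25 and Tubb3) after centring, against 3.72% and 3.83% of all genes, and 1 and 4 after rescaling, against 11.3% and 8.28%. The cKO and dKO embryos with the highest neuron marker sums, both embryo 2, also had the highest value of their group for 6 and 7 of the 10 receptor genes. Among controls this did not hold: embryo 3 had the highest neuron marker sum but the highest value for only 1 of the 10. In bulk tissue, fewer cells of a type and less RNA per cell cannot be told apart.

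Expressed as a percentage of the neuron marker sum, Gria2 was 10.9% ± 1.51 among controls, 10.5% ± 0.792 for cKO and 8.58% ± 1.16 for dKO, and all 3 groups overlapped. Grik2 was 10.5% ± 1.37, 8.53% ± 0.964 and 9.65% ± 2.03 in the same order, also overlapping. For Gria4 the values were 0.853% ± 0.0754, 1.21% ± 0.0486 and 0.977% ± 0.141, with every cKO embryo above all others. The same held for Gria3, at 0.307% ± 0.0809, 0.558% ± 0.0732 and 0.239% ± 0.0483. Gria1, Grin2b and Grin3a were also separate upward from control in cKO, and Grin3a in dKO as well. Grin1 was 0.0930% ± 0.0253, 0.140% ± 0.0257 and 0.224% ± 0.0166, with every dKO embryo above all others. Mean Grin1 TPM itself was in dKO 96.3% of that in cKO. The neuron marker sum that divides it was lower in every dKO embryo than in every cKO embryo. The ratio was chosen after the values were seen and carries no test.

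**Figure D4:**
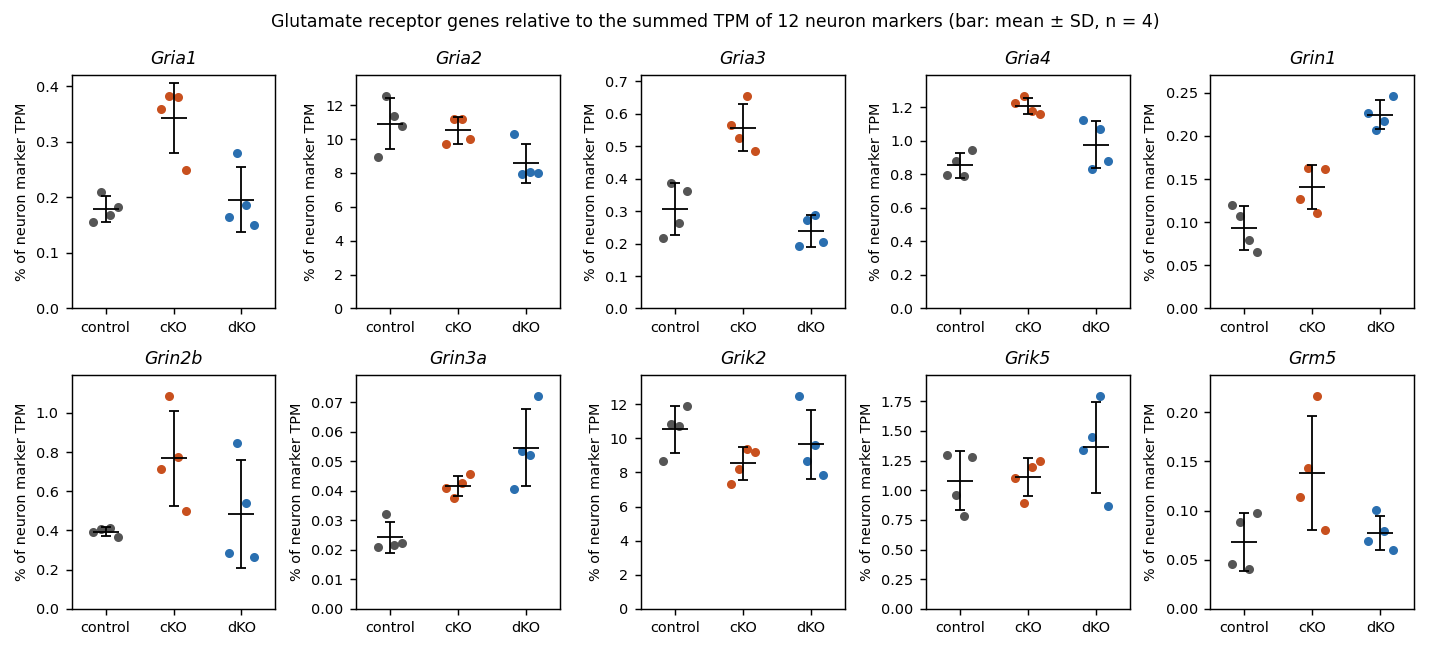
TPM of each receptor gene as a percentage of the summed TPM of 12 neuron markers in each embryo (points), with mean ± SD (n = 4) on axes from 0. Gria3 and Gria4 are highest in every cKO embryo and Grin1 in every dKO embryo, while Gria2 and Grik2 overlap across genotypes. Grin3a and Grik5 also have their highest mean in dKO but overlap cKO. Grin1 TPM itself overlaps between the mutants.

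Several other cell classes moved as well, and their marker sums are given as deposited. Summed markers of Cajal-Retzius neurons (early-born Reln cells of the cortical surface, 5 listed) were at 16.6 to 23.1 TPM in controls, against 38.8 to 45.2 for cKO and 19.7 to 30.5 for dKO. In the same order, the 9 markers of interneurons and ventral telencephalon were at 1.74 to 2.47, 3.68 to 5.31 and 1.68 to 3.79, with Dlx6, Gsx2 and Nkx2-1 at 0 in some libraries. The 6 microglia markers were at 9.02 to 10.3, 32.6 to 47.2 and 10.1 to 13.99, with every cKO embryo above all others. The 6 vessel markers were at 9.27 to 11.97, 18.2 to 23.95 and 11.6 to 18.7, and the 5 meningeal markers at 12.9 to 21.9, 22.01 to 27.4 and 19.1 to 27.02. The 10 radial glia markers were at 279 to 325, 323 to 389 and 303 to 309, and the 6 intermediate progenitor markers, which overlapped across genotypes, at 37.8 to 53.9, 37.8 to 50.4 and 34.6 to 43.9. The 5 oligodendrocyte precursor markers (Olig1 and Olig2 at 0 in some libraries) were at 0.887 to 1.80, 2.40 to 2.84 and 1.64 to 2.33, and the 6 red blood cell genes at 1998 to 3015, 2436 to 3407 and 2193 to 2793. The median log2 change in cKO was -0.01 for radial glia markers and -0.07 for intermediate progenitor markers, and -0.26 and -0.32 after centring. After centring, 2 of 10 and 3 of 6 of these were called lower in cKO, against 2.96% of all tested genes. In that fit 5 of 6 microglia, 3 of 5 vessel, 2 of 4 Cajal-Retzius and 1 of 3 meningeal markers were called higher, against 3.72%. Of the red blood cell genes, 0 of 6 were called in cKO. The part of these cells in the receptor values was not tested.

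The other 16 glutamate receptor genes all averaged below 1 TPM. Without a filter, 3 of the 16 were called higher in cKO, against 11% of all genes, and 1 lower in dKO than in cKO, against 14.5%. With rescaling these counts were 0 and 1. For Grm3, a metabotropic receptor, the log2 difference in cKO was 0.31 (limma adjusted p = 0.0386) and 0.26 with rescaling (limma adjusted p = 0.111). For Grik1, a kainate subunit, it was 0.33 in cKO (limma adjusted p = 0.0144) and -0.39 from cKO to dKO (limma adjusted p = 0.0056), and with rescaling 0.25 (limma adjusted p = 0.0674) and -0.29 (limma adjusted p = 0.0431). Both were named after their values were seen.

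For the lists that follow, the shares of all tested genes called higher in cKO and lower in dKO than in cKO were 34.3% and 38.8% as deposited, 3.72% and 3.83% after centring, and 11.3% and 8.28% after rescaling. Among auxiliary and assembly proteins of the receptors, 3 of 7 tested genes were called higher in cKO and 4 lower in dKO than in cKO, as against 1 and 1 after centring and 1 and 1 after rescaling. Cpt1c, which acts in GluA1 trafficking, was at 3.03 TPM ± 0.175 in controls, against 7.81 ± 1.15 for cKO and 2.33 ± 0.135 for dKO. Its rise in cKO was 1.12 as deposited (limma adjusted p = 1.03e-05) and 0.87 after centring (limma adjusted p = 1.53e-05), and it was the only auxiliary gene called higher in cKO after centring or rescaling. Frrs1l, an AMPA receptor assembly factor, was called in cKO as deposited (0.52, limma adjusted p = 0.0129) but not after centring (limma adjusted p = 0.241) or rescaling (limma adjusted p = 0.0682).

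Scaffold proteins had 8 of 12 called higher in cKO and 8 lower in dKO than in cKO, led in cKO by Dlgap4 (0.51) and Dlg2 (0.48). These counts were 0 and 0 after centring and 2 and 1 after rescaling. Receptor signalling genes had 6 of 11 higher in cKO, led by Itpr1 (0.74) and Camk2b (0.72), and 7 lower in dKO than in cKO. These counts were 0 and 1 after centring and 4 and 2 after rescaling. The gene called after centring was Plcb1, a phospholipase C downstream of Gq, named after its values were seen, which was also lower in dKO than in control (-0.68, limma adjusted p = 0.00332).

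Of the genes for glutamate transport and metabolism, 4 of 9 were called higher in cKO, led by the uptake transporters Slc1a2 (0.64) and Slc1a3 (0.55), and 6 lower in dKO than in cKO. These counts were 1 and 0 after centring and 3 and 2 after rescaling, and the gene called higher after centring was Glul, glutamine synthetase, named after its values were seen. Of the RNA editing and repression genes, Adarb1, the enzyme that edits Gria2 RNA, and Adar were called higher in cKO (0.38 and 0.33) and lower in dKO than in cKO, and neither was called after centring or rescaling. GABA and glycine receptor genes, the inhibitory counterparts, had 5 of 7 called higher and 1 lower in cKO, against 1.09% of all tested genes called lower, and 7 lower in dKO than in cKO. The counts of higher in cKO and lower in dKO than in cKO were 0 and 3 after centring and 4 and 4 after rescaling. As deposited, the largest called rises were in Glra2 (0.72) and Gabra2 (0.66), neither called after centring (limma adjusted p = 0.11 and 0.0639). Glrb, the glycine receptor beta subunit, was lower in cKO (-0.35, limma adjusted p = 0.0464) and in dKO (-0.85, limma adjusted p = 0.00241) than in control, also after centring (-0.60 and -0.83), where 2.96% of genes were called lower in cKO. The median log2 change in cKO was 0.57 for the tested GABA and glycine receptor genes, 0.31 for auxiliary proteins, 0.40 for scaffolds, 0.50 for signalling, 0.28 for transport and 0.30 for editing and repression, against 0.25 over all tested genes.

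The 5 genes whose log2(TPM + 1) values were most like the mean of the standardised values of the 6 tested receptor genes across the 12 libraries were Nbea, Lrfn5, Tnik, Nrg3 and Ypel4. Their Pearson correlations ran from 0.97 for Ypel4 to 0.99 for Nbea, and 247 of 11758 other genes reached 0.9. The libraries fall into 3 genotypes and share their scaling. On deviations from the genotype means the correlations of the 5 ran from 0.83 to 0.96. The 5 were chosen on the same libraries, deviations included, and values for other genes are not given, so this is a description only. Nbea was at 11.8 TPM ± 1.54 in controls, against 18.6 ± 2.29 for cKO and 9.08 ± 1.78 for dKO.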

How the data were processed

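The authors deposited 1 table per embryo with 54735 gene symbols and no header, in TPM, a unit inferred from the values, which sum to 1000000 in each table. Per the submitters' processing notes HISAT2 and mm10 were used. The counting tool, annotation and treatment of shared reads are not given in the sources used here. Groups and replicate numbers come from the sample titles. The receptor genes, gene lists and tests were chosen with earlier results of these data known.

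Values were analysed as log2(TPM + 1), which understates changes of low genes, with limma 3.58.1 in R 4.3.3 (eBayes with trend, 1 fit of 3 groups, no covariates) over genes averaging 1 TPM or more, and called at a Benjamini-Hochberg adjusted p under 0.05. Genes below that are given from the fit without a filter. Alternatives were the pseudocount, filter, scaling, sample weights, fits of 2 groups, a replicate block and leaving out each embryo. A further 3, chosen after seeing the data, joined no filter with protein-coding rescaling, median-ratio rescaling or a pseudocount of 0.1. Loci and gene types are from GENCODE M21 (GRCm38). All 10 receptor genes are named. From each other list the rule names the 2 largest called increases and decreases in cKO, and, over all genes, the 5 most alike in pattern. The fit was tested on simulated data for cKO against control only. These held no shift over all genes, so the test does not bear on the choice of scaling. A result on 1 listed gene is not reported here.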

Additional observations from a re-analysis of the deposited data

How the results depend on the processing

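Calls among the 6 tested receptor genes numbered 4 for cKO minus control, 1 for dKO minus control and 5 for dKO minus cKO. For the first they numbered 7 (of 10 tested) without a filter, 1 (of 2 tested) at a mean of 5 TPM or more, 1 after centring, 2 after rescaling, 1 after quantile normalization, and, without a filter, 1 after median-ratio and 2 after protein-coding rescaling. For the second they numbered 2 with sample weights and 0 and 0 in these unfiltered rescaled fits. For the last they numbered 2 (of 2 tested) at 5 TPM, and 3 after centring, 3 after rescaling, 3 after quantile normalization and 3 after unfiltered median-ratio rescaling. Leaving out 1 embryo gave 2 to 4, 0 to 2 and 5 to 5 calls; the lowest counts came without cKO embryo 2 for the first and without control 2, 3 or 4 or dKO embryo 3 for the second, where leaving out control 1 gave the highest. A fit of the 2 groups compared gave 4, 1 and 5 calls, with Grik5 gained and Gria2 lost in cKO minus control. The replicate block gave 4, 1 and 5 calls and changed none. Deviations from the genotype means correlated between -0.0954 and 0.0745 for same-numbered embryos. Embryos of unlike number were not compared, so whether the numbers mark pairs was not tested. The sign of Grik2 in cKO minus control reversed to -0.13 after centring, -0.0361 after rescaling, -0.10 after quantile normalization and, unfiltered, -0.18 and -0.0361 after median-ratio and protein-coding rescaling. In dKO minus control Grin2b reversed to 0.0103 after rescaling and 0.0103 in its unfiltered form, and Grik5 to -0.0355 with sample weights; leaving out 1 embryo gave -0.245 to 0.120 for Grin2b and -0.0871 to 0.148 for Grik5. In dKO minus cKO, unfiltered median-ratio rescaling gave 0.0910 for Grin1 and 0.0029 for Grin3a, and unfiltered protein-coding rescaling 0.0593 for Grin1. The cause was not tested, beyond the fewer or more genes tested where the filter changes. No depth can be read from TPM, so the precision of genes below 1 TPM is unknown.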
